A study of Mus musculus with 4 samples.

Results

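Cytoplasmic ribosomal protein genes were compared between the dorsal part and the ventral part of the tracheoesophageal anlage, from BALB/c mice around E9.75. They were taken as all probe sets of the array whose only gene symbol in the platform annotation starts with Rpl or Rps and goes on with the number of a ribosomal protein, or is that of a P-stalk protein, with the kinases of the Rps6k family left out. This gave 103 of 34958 probe sets with 1 symbol, for 48 of 18194 genes, of which 26 encode proteins of the large subunit or their paralogs and 22 those of the small subunit or their paralogs. A further 110 probe sets name a ribosomal protein gene together with other genes and were not used as members. Of the 43 ribosomal protein genes on those, 28 have no probe set of their own and are not described here, *Rpl3*, *Rpl10*, *Rpl36a* and *Rplp1* are likewise not analysed here.

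The anlage is the single tube that later divides into esophagus and trachea, with the lung bud beginning as a ventral swelling. It was dissected and cut by hand, with no separation of epithelium from mesenchyme stated, and the embryos carried no stated mutation or treatment. Each part was measured on 2 Affymetrix arrays, called biological replicates in the labels, which do not state whether litters or pools differed, so that a p-value here covers no more than the spread of these 4 arrays. The labelled cRNA came from 2 cycles of amplification that started with 100 ng of RNA, and RMA gave 1 value per probe set, read here as log2. In such mixed tissue, fewer cells of a type and less RNA per cell cannot be told apart.

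Ribosomal proteins assemble with ribosomal RNA into the small subunit, which reads the mRNA, and the large subunit, which joins amino acids. Nearly all are needed in about equal amounts in every cell that grows, and their mRNAs, among the most abundant of a cell, begin with a pyrimidine tract that ties their translation to the TOR pathway. A few have paralogs with restricted expression, such as *Rpl3l* in striated muscle and *Rpl39l* in male germ cells.

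The starts of these genes are shown first because the pyrimidine tract is a feature of sequence that the choice of genes did not use. RefSeq windows from 250 bases before to 50 bases after an annotated start, on the mouse assembly GRCm38.p6, were held for 42 of the 48 genes, in 50 windows. A run of at least 7 pyrimidines within 30 bases of the start was found in 29 of the 42 genes (69%), against 36.4% of 10564 tested genes with a window and 37.4% of all 27025 genes with one. The letters CCGGAAG, on either strand anywhere in the window, the core bound by Ets factors such as GABP, were found in 20 of the 42 genes (47.6%), against 18.8% of the tested genes and 9.93% of all. GGGCGG was found in 57.1% of the ribosomal protein genes, 67.4% of the tested genes and 38.2% of all, and TATAAA in 14.3%, 8.97% and 15.7%, both counted on either strand. Each motif was counted on its own, whether or not it overlapped another. Annotated starts can be off by some bases, and a match is only a match of letters. The 30 bases around the start, on the transcribed strand with the start at the base after the first 15, are given for 5 genes with a long run, then for genes of different levels and for paralogs, with the longest pyrimidine run of at least 5 bases in capitals.
Rpl7a: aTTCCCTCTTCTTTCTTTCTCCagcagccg
Rpl35: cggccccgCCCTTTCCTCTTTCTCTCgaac
Rps10: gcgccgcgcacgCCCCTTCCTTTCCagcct
Rpl14: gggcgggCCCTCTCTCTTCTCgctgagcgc
Rps6: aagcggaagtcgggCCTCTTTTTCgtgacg
Rpl12: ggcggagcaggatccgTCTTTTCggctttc
Rps4x: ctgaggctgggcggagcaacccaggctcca
Rps27: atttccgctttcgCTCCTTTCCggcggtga
Rps27l: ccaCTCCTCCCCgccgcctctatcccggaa
Rpl3l: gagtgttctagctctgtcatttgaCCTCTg
Rpl7l1: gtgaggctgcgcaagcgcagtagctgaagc

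These windows lie at chr2:26910792-26910821 (plus strand) for *Rpl7a*, chr2:39005117-39005146 (minus) for *Rpl35*, chr17:27635230-27635259 (minus) for *Rps10*, chr9:120571502-120571531 (plus) for *Rpl14* and chr4:86857353-86857382 (minus) for *Rps6*. That of *Rpl12* is chr2:32961697-32961726 (plus), that of *Rps4x* chrX:102189377-102189406 (minus) and that of *Rps27* chr3:90213634-90213663 (minus). For the paralogs they are chr9:66946071-66946100 (plus) for *Rps27l*, chr17:24727811-24727840 (plus) for *Rpl3l* and chr17:46782642-46782671 (minus) for *Rpl7l1*. *Rps27l* and *Rpl3l* each have another annotated start, not shown. The pyrimidine run was 21 bases long in *Rpl7a*, 9 in *Rps27* and 9 in *Rps27l*, while the longest run at *Rpl3l* had 5 bases and that at *Rpl7l1* had 2. *Rps4x*, one of the brightest members, had no run over 4 bases in this window.

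Each gene was followed through its brightest probe set. On every array, 39 of the 48 genes lay above the 90th percentile of all probe sets and 31 above the 99th. Of the 103 single probe sets, 72.8% were above the 90th percentile on all 4 arrays, against 10.5% of all probe sets with 1 symbol. Of the 274 named probe sets above the 99th percentile on all arrays, 45 belonged to ribosomal protein genes. These places describe brightness on the array and not amounts of mRNA, which probe sets do not compare between genes. *Rps2*, of the small subunit near the mRNA entry, gave 14.66 and 14.70 dorsally and 14.71 and 14.43 ventrally. *Rps4x*, the X-linked gene of protein S4, had 14.54 and 14.51 dorsally and 14.54 and 14.30 ventrally. In both genes 3 arrays lay together and ventral replicate 2 was the lowest.

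**Figure D1:**
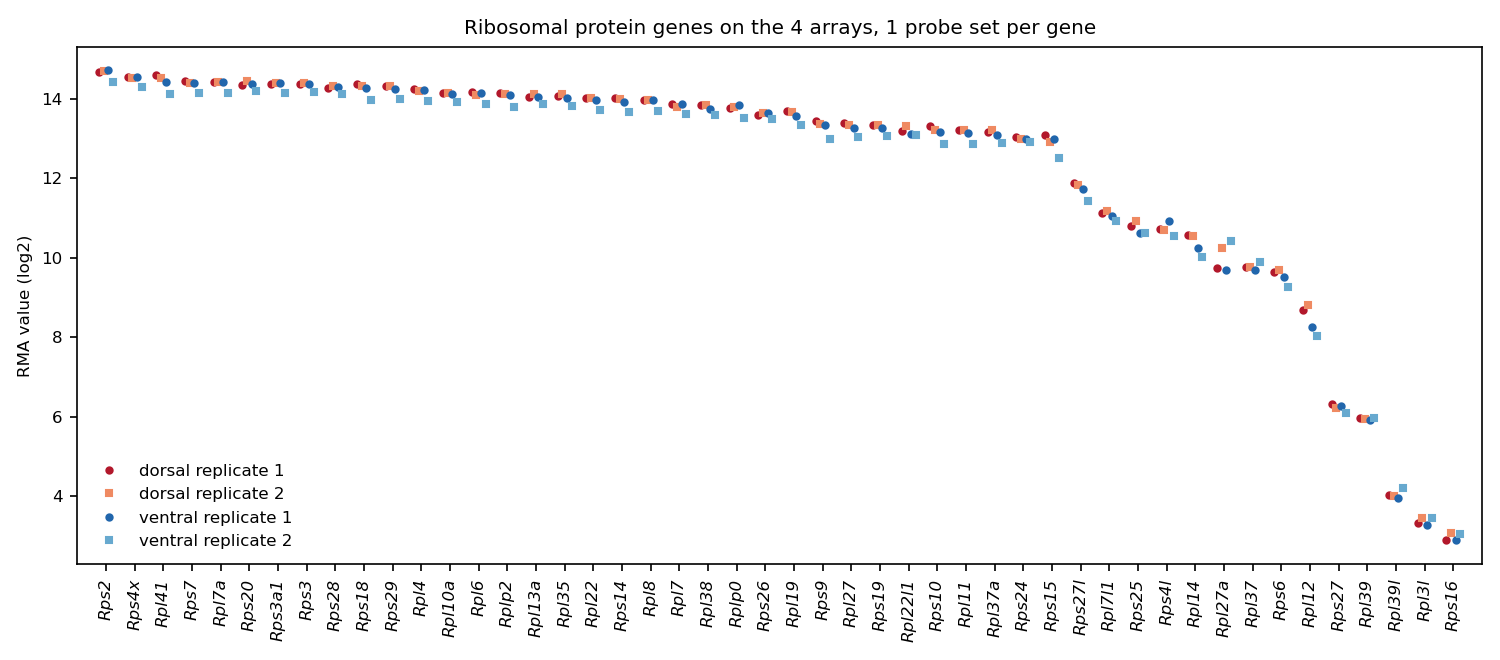
RMA values (log2, vertical axis) of the 48 ribosomal protein genes (horizontal axis, ordered by mean), with 1 point per array, from the brightest probe set of the gene. The 31 genes above the 99th percentile form a plateau on which ventral replicate 2 is mostly the lowest point, and *Rps16*, *Rpl3l* and *Rpl39l* lie lowest.

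Of the 48 genes, 45 passed the filter, a value over the 40th percentile on 2 or more arrays, and were tested with limma among 13139 genes. *Rpl12* alone was higher in the dorsal part at an adjusted p under 0.05, and none was higher in the ventral part. Over all tested genes 4.79% were higher dorsally and 4.09% ventrally, 8.88% in all. At an unadjusted p under 0.05 there were 2 members, *Rpl12* and *Rpl14*, against 19% of all tested genes. The share of members called lay below the background. Other bright genes were called about as seldom, as 60 of 2705 other tested genes above the 90th percentile on all arrays were called (2.22%) and none of 184 above the 99th percentile.

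*Rpl12* encodes a protein at the base of the stalk of the large subunit. Its values were 8.70 and 8.81 dorsally and 8.25 and 8.02 ventrally, so that both dorsal arrays lay above both ventral arrays. The log2 difference was 0.62 (standard error 0.17, 95% interval 0.26 to 0.97, n = 2 arrays per part, limma adjusted p = 0.0228). The arrays numbered 1 gave 0.45 and those numbered 2 gave 0.79. It rests on 1 probe set, which lay at the 76.9th percentile on the array where it was dimmest, while 31 members lay above the 99th everywhere. It passed the test under 11 of 14 alternatives, with an adjusted p from 0.00550 to 0.651, and not without dorsal replicate 1 (0.67), without dorsal replicate 2 (0.56) or when each probe set was tested on its own (adjusted p = 0.0632 from limma). The smallest two-sided p that exact permutation allows with 2 arrays in each part is 0.333.

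*Rpl14*, of the large subunit, had 10.57 and 10.55 dorsally and 10.25 and 10.01 ventrally, also without overlap. Its log2 difference of 0.42 (standard error 0.17, 95% interval 0.07 to 0.78) did not pass the test (adjusted p = 0.158 from limma, 0.0143 to 0.9997 over the alternatives). It passed without ventral replicate 1, at 0.54. *Rpl41*, which encodes one of the smallest known proteins, had 14.60 and 14.52 dorsally and 14.41 and 14.11 ventrally, a difference of 0.30 with an interval of -0.06 to 0.66. *Rps6*, the substrate of the S6 kinases, had 9.64 and 9.70 dorsally and 9.52 and 9.27 ventrally, a difference of 0.28 with an interval of -0.08 to 0.63. In *Rpl41* and *Rps6* the groups did not overlap, and their adjusted p from limma were 0.387 and 0.419.

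**Figure D2:**
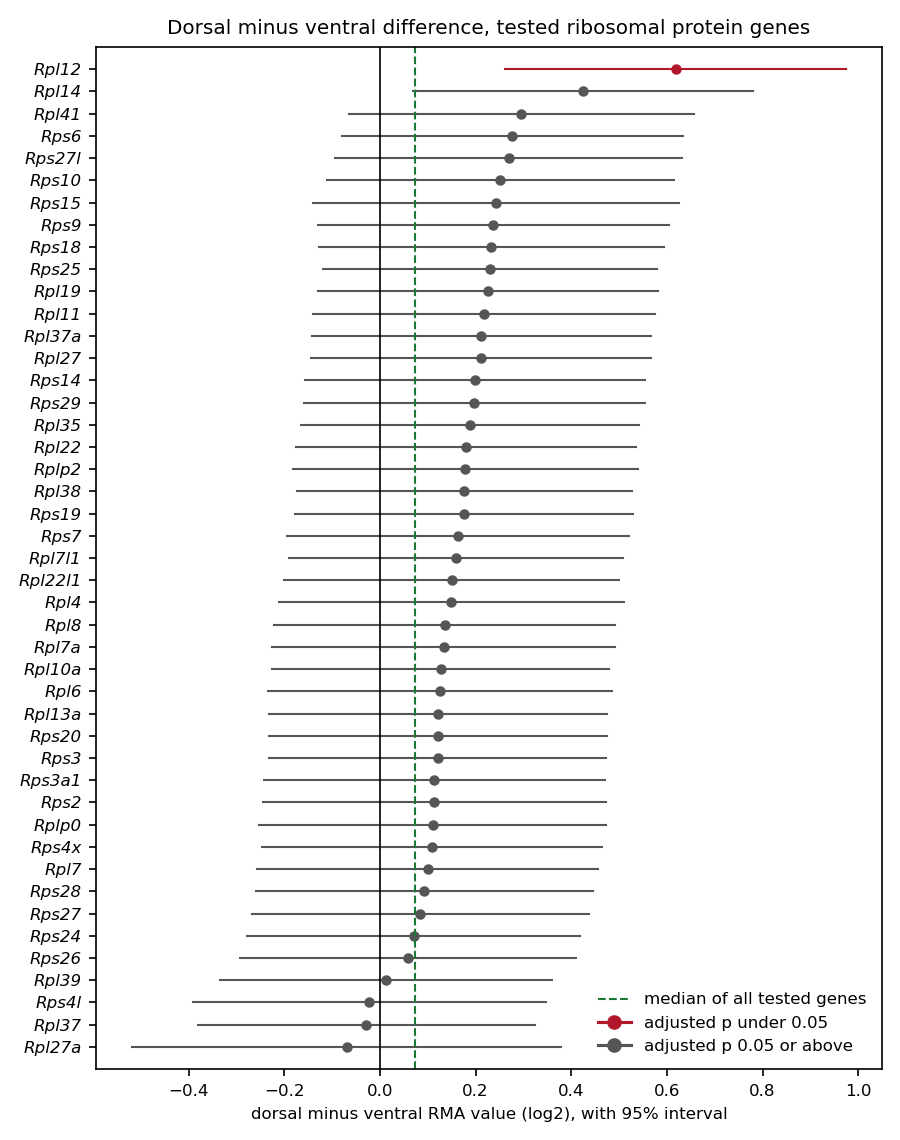
Log2 difference, dorsal minus ventral (horizontal axis), of the 45 tested ribosomal protein genes, with the moderated 95% interval from limma and a dashed line at the median of all tested genes, 0.07. Points crowd between 0 and 0.3, and *Rpl12* is the 1 gene past the threshold.

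The tested members lay close together. Their differences ran from -0.07 to 0.62 with a median of 0.16, a fold of 1.12, where the median of all 13139 genes was 0.07. The 95% interval lay within 1 log2 unit of 0 for all 45 members and for 92.5% of tested genes, and within 0.5 unit for 20 members (44.4%) and for 38.5% of tested genes. The middle 50% of the members spanned 0.10, against 0.33 for all tested genes, 0.19 for the 2705 other genes above the 90th percentile and 0.12 for the 184 others above the 99th, the level at which most members lay. Standard errors of the members were 0.17 to 0.22, after limma moderated them with the spread of all tested genes. They are not the spread of a gene alone, as *Rpl39* ranged over 0.05 across the 4 arrays with an error of 0.17. In this fit, a shift as small as the median could not be told from 0 in any one gene at this number of arrays.

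The sign was nevertheless mostly the same. Of 45 members 42 were positive (93.3%), against 61.5% of all tested genes, 79.1% of the others above the 90th percentile and 88% of the others above the 99th. Both dorsal arrays lay above both ventral arrays in 27 members (60%), against 33.3% of all tested genes, 46.3% of the others above the 90th percentile and 48.4% of those above the 99th. In no member did both ventral arrays lie above both dorsal ones, against 17.6% of all tested genes, 248 of the 2705 others above the 90th percentile and 6 of the 184 above the 99th. By subunit the median was 0.15 for 24 genes of the large subunit, of which 22 were positive, and 0.16 for 21 genes of the small subunit, of which 20 were positive. Members share samples and their values are not independent of each other, so these shares are descriptions.

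Ventral replicate 2 moved with this shift. The median level of the 45 members was 13.77 and 13.79 on the dorsal arrays, 13.74 on ventral replicate 1 and 13.51 on ventral replicate 2. Ventral replicate 2 was lower than ventral replicate 1 in 42 members, by a median of 0.24, while the dorsal arrays differed by a median size of 0.04. Other bright genes behaved alike, with ventral replicate 2 lower by a median of 0.22 and in 92% of them. The 90th percentile of all probe sets was 10.06, 10.06 and 10.06 on the other arrays and 9.82 on ventral replicate 2, and the 99th was 13.05 and 13.03 dorsally, 13.01 on ventral replicate 1 and 12.86 on ventral replicate 2. The median of all probe sets was not lower on ventral replicate 2. It was 5.47 there, against 5.45 and 5.45 dorsally and 5.42 on ventral replicate 1.

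Without ventral replicate 2 the median of the members was 0.05 and 35 of 45 were positive, where 50% of all tested genes were, and *Rpl12* alone was called, at 0.51, beside 4.78% of all tested genes called dorsally. Without ventral replicate 1 the median was 0.26 and 23 members were called higher dorsally, where 35.1% of all tested genes were called so with a median of 0.18. No member was called higher dorsally without dorsal replicate 1 or dorsal replicate 2, against 1.9% and 1.94% of tested genes called so. At an unadjusted p under 0.05 those fits by limma had 1 member and none. When the values were quantile-normalized once more, which gives the arrays equal distributions, the median was 0.04 with 29 of 45 members positive, where 47% of all tested genes were, and *Rpl12* was again the only call, at 0.51. Within the arrays numbered 1 the median difference of the members was 0.06, and within those numbered 2 it was 0.27.

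**Figure D3:**
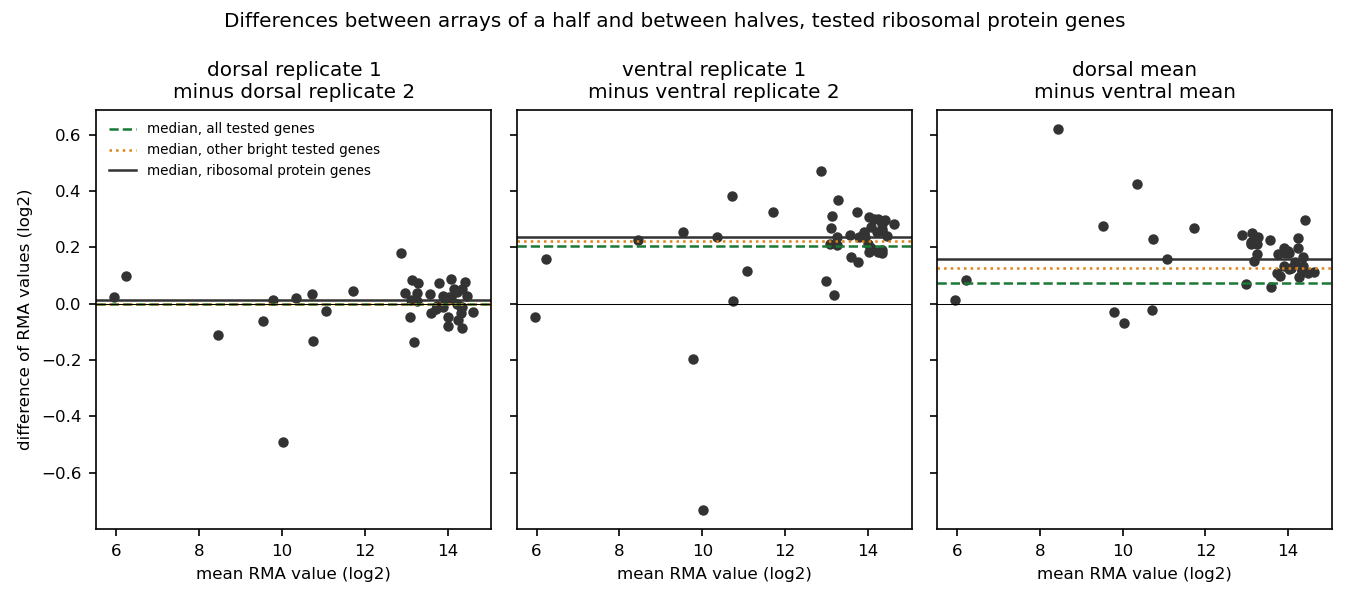
Differences of RMA values (log2, vertical axis) against mean level (log2, horizontal axis) for the 45 tested ribosomal protein genes, between the dorsal arrays, between the ventral arrays and between the parts, with lines at the medians of these genes, of other bright genes and of all tested genes. The dorsal arrays centre on 0, ventral replicate 1 exceeds ventral replicate 2 by a median of 0.24, and the parts differ by a median of 0.16.

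Among the other genes of the large subunit, *Rpl11*, which also binds the p53 regulator Mdm2, had 13.22 and 13.21 dorsally and 13.13 and 12.86 ventrally. *Rpl38*, known in mouse embryos for its part in the translation of Hox mRNAs, had 13.84 and 13.85 dorsally and 13.74 and 13.59 ventrally, a difference of 0.18 (95% interval -0.17 to 0.53). The dorsal values of *Rpl11* and *Rpl38* lay above the ventral ones, and neither passed the test. The P-stalk genes, whose proteins recruit elongation factors, were held by *Rplp0*, with 13.77 and 13.79 dorsally and 13.83 and 13.51 ventrally, and *Rplp2*, with 14.13 and 14.11 dorsally and 14.09 and 13.79 ventrally. In *Rplp0* the ventral arrays lay on both sides of the dorsal ones, and within the arrays numbered 1 its difference was -0.06.

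*Rpl27a* spread the most between arrays of a part. Its values were 9.74 and 10.23 dorsally and 9.69 and 10.42 ventrally, so the arrays numbered 2 exceeded those numbered 1 in both parts, by 0.49 and 0.73. Its difference between the parts was -0.07 (95% interval -0.52 to 0.38). *Rpl37* was another of the 3 members below 0, with 9.78 and 9.76 dorsally and 9.70 and 9.90 ventrally. *Rps4l* was the last, and its values follow with the paralogs. In all 3 the ventral values lay on both sides of the dorsal ones, and none of the differences exceeded the spread between replicates.

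In the small subunit, *Rps15*, an assembly protein of its head, had 13.09 and 12.91 dorsally and 12.99 and 12.52 ventrally, and ventral replicate 2 lay 0.47 below ventral replicate 1. *Rps19*, the gene most often mutated in Diamond-Blackfan anemia, had 13.34 and 13.33 dorsally and 13.26 and 13.06 ventrally. In *Rps15* the groups overlapped, and in *Rps19* they did not. *Rps20* had 14.36 and 14.44 dorsally and 14.37 and 14.18 ventrally, where the groups overlapped. The differences of the 20 positive members of the small subunit ran up to 0.28, and none passed the test.

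Paralogs were compared with their partners part by part, since levels of different probe sets are not comparable. *Rpl3l*, the striated muscle form of the large-subunit protein L3, had 3.33 and 3.46 dorsally and 3.28 and 3.46 ventrally, down to the 10.3rd percentile of an array, and did not pass the filter. The mean of 15 heart muscle genes was 5.79 and 5.80 dorsally and 8.67 and 8.45 ventrally, and 12 of 13 tested were higher ventrally. Of those called, *Myh6* (3.87 and 3.93 dorsally, 10.07 and 10.05 ventrally) passed the filter only through its ventral arrays. The same holds for *Ryr2* (4.42 and 4.54 against 7.82 and 7.42), so the part where these 2 were high let them into the test. The 1 probe set of *Rpl3l* stayed low on the arrays where the heart muscle mean was high. Its value does not show the level of the mRNA. Of the skeletal muscle list, the regulators *Myod1*, *Myf5*, *Myf6* and *Myog* and the troponin gene *Tnnc2* did not pass the filter. Another 6 were tested without a call. *Myh3* was called higher dorsally (4.91 and 4.82 against 3.46 and 3.60), but it passed the filter only through its dorsal arrays. It was thus let into the test by the part where it was high. *Rpl39l* had 4.03 and 4.02 dorsally and 3.96 and 4.22 ventrally and did not pass the filter. None of 7 germ cell genes passed it either, with list means of 3.68 to 3.95. *Rpl39*, its partner, had 5.97 and 5.95 dorsally and 5.92 and 5.97 ventrally, a difference of 0.01 (95% interval -0.33 to 0.36).

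*Rps27l* encodes a close paralog of S27 and is known as a target of p53. Its values were 11.87 and 11.83 dorsally and 11.74 and 11.42 ventrally, a difference of 0.27 (standard error 0.17, 95% interval -0.09 to 0.63, adjusted p = 0.445 from limma), and its other probe sets gave 0.30 and 0.25. *Rps27* had 6.32 and 6.22 dorsally and 6.27 and 6.11 ventrally, a difference of 0.08, where the groups overlapped. Of 12 tested p53 target genes 6 had a positive difference, the sign of *Rps27l*, and the list median was 0.07. *Cdkn1a*, the cell cycle inhibitor p21, was the 1 gene called, with 8.65 and 8.69 dorsally and 9.32 and 9.16 ventrally. Its sign was opposite to that of *Rps27l* (log2 difference -0.56, adjusted p = 0.0375 from limma). *Cdkn1a* was not called without dorsal replicate 1 or dorsal replicate 2, and without ventral replicate 1 there were 6 called dorsally and 2 ventrally in that list.

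*Rpl22l1* and its partner *Rpl22*, of the large subunit, differed between the parts by 0.15 (13.19 and 13.32 against 13.12 and 13.09) and 0.18 (14.03 and 14.01 against 13.96 and 13.72). *Rpl7l1*, a paralog of L7, had 11.14 and 11.17 dorsally and 11.05 and 10.94 ventrally, and *Rpl7* had 13.88 and 13.80 dorsally and 13.86 and 13.62 ventrally. In *Rpl22l1*, *Rpl22* and *Rpl7l1* every dorsal value was above every ventral one, and in *Rpl7* the groups overlapped. In the dimmer probe sets of *Rpl7l1* the groups also overlapped. *Rps4l* had 10.73 and 10.69 dorsally and 10.92 and 10.54 ventrally, a difference of -0.02 (95% interval -0.39 to 0.35), while its partner *Rps4x* differed by 0.11. No difference between a paralog and its partner was tested as such. *Rps16* was represented by 1 probe set at 2.91 and 3.07 dorsally and 2.90 and 3.06 ventrally, which is the lowest level of the set. This gene encodes a core protein, so the value describes that probe set and does not show the level of its mRNA.

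Of the 103 probe sets, 96 passed the filter and 89 of those had a positive difference. None was called when all 23336 named probe sets past the filter were tested one by one, where 5.84% were called, although 6 had an unadjusted p under 0.05 in limma. Among the 23 genes with more than 1 probe set, some spanned a wide range of levels. *Rps20* had probe sets at mean values of 14.34, 13.84, 7.35 and 5.91, and *Rps18* had 3 between 13.23 and 14.23 and 3 between 3.60 and 5.15. In other genes they lay close, as in *Rps29*, with 14.22, 14.21 and 14.19.

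The largest differences lay in such dimmer probe sets. In *Rps9*, whose protein sits at the decoding end of the small subunit, the dimmest of 3 probe sets had 7.43 and 7.46 dorsally and 7.04 and 6.25 ventrally, a difference of 0.79, while the brightest gave 0.24 and the other -0.02. In *Rpl41*, the dimmer pair of probe sets differed by 0.58 and 0.50, and the brighter pair by 0.30 and 0.21. With probe sets ending in _s_at or _x_at left out, which match several transcripts or genes, the dim probe sets stood for *Rps9* and *Rpl41* and these were called beside *Rpl12* (3 of 40 tested members, where 5.04% of all tested genes were called dorsally). *Rps9* was then at 0.79 (adjusted p = 0.00301, the lowest of a range up to 0.9999 over the alternatives) and *Rpl41* at 0.58 (adjusted p = 0.0290, range 0.0211 to 0.9999), both from limma.

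**Figure D4:**
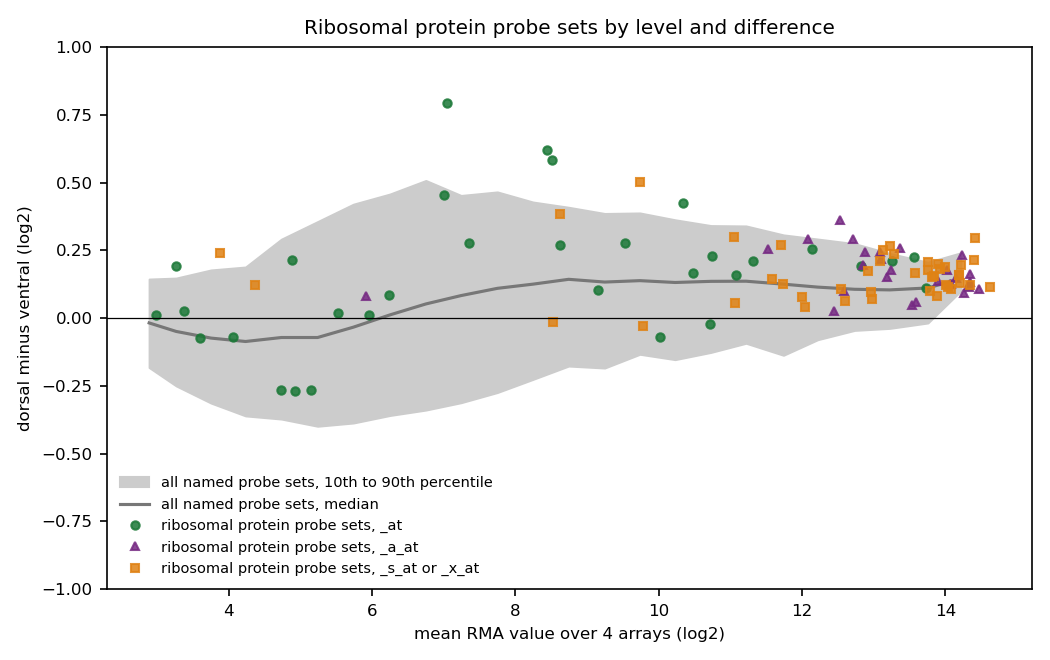
Dorsal minus ventral difference (log2, vertical axis) against mean RMA value (log2, horizontal axis) of the 103 ribosomal protein probe sets, marked by the ending of their name, over the 10th to 90th percentile and the median of all named probe sets at that level. Probe sets at levels from 13 to 14 lie mostly above the median of their level, and those from 14 to 14.5 lie on both sides of it. That median includes the ribosomal protein probe sets themselves, so it is not a separate background. From 14 to 14.5 it rests on 52 probe sets. The points above 0.5 are those of *Rps9*, *Rpl12* and *Rpl41* at middle levels.

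By the ending of the name, 43 probe sets ended in _s_at or _x_at, with a median difference of 0.16, 28 ended in _a_at, with 0.15, and 32 ended in _at alone, with 0.18. The median level was 13.28, 13.45 and 8.47 in these groups. Those that ended in _at alone ran from -0.27 to 0.79, wider than the 0.03 to 0.36 of those ending in _a_at. The 110 probe sets shared with other genes had a median level of 13.42 and a median difference of 0.16, from -0.20 to 0.68.

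Other genes of protein synthesis were also mostly positive, beside the 61.5% of all tested genes and 79.1% of other bright genes that were, and no list was tested against these. *Rpsa* and *Fau*, which encode ribosomal proteins under names outside the rule, differed by 0.17 and 0.23, and neither passed the test. None of 9 tested elongation factor and pyrimidine tract genes was called (median 0.17, all 9 positive), nor any of 24 initiation factors (median 0.17, all 24 positive). None of 73 mitochondrial ribosomal protein genes was called (median 0.24, 72 positive, lowest adjusted p = 0.175 from limma). The elongation factor gene *Eef1a1* had 14.64 and 14.60 dorsally and 14.66 and 14.39 ventrally, with the groups overlapping as in *Rps2*. Without ventral replicate 1, where 35.1% of all tested genes were called dorsally, the calls were 5, 12 and 55 in these lists, all dorsal, and their medians without ventral replicate 2 were 0.04, 0.04 and 0.10.

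Of 28 tested ribosome assembly factors *Mdn1*, an ATPase that strips factors from the nascent large subunit, was higher dorsally (9.90 and 9.94 against 9.43 and 9.22, log2 difference 0.59, adjusted p = 0.0298 from limma). The other 27 did not pass, with a list median of 0.29 and 27 of 28 positive. Of 12 genes of RNA polymerase I and its regulators *Mycn* was higher dorsally (12.36 and 12.35 against 11.90 and 11.71, log2 difference 0.55, adjusted p = 0.0446 from limma), and the list median was 0.26. None of 12 genes of the TOR pathway passed (median 0.21). Without dorsal replicate 1 and without dorsal replicate 2 no gene of these 3 lists was called, without ventral replicate 1 there were 23, 6 and 9 dorsal calls beside the 35.1% of all tested genes, and without ventral replicate 2 the medians were 0.17, 0.15 and 0.04.

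As a check of the tissue, foregut genes were measured on every array. *Foxa2*, *Sox2*, *Foxf1* and *Barx1* lay at the 81.3rd percentile or higher on all 4 arrays. Others of the same list were lower. On the lowest array of each, *Nkx2-1* reached only the 44.6th, *Tbx4* the 50.4th, *Wnt2* the 74.3rd and *Cdh1* the 75.5th. *Shh* was 13.22 and 12.93 ventrally and 10.45 and 10.38 dorsally. Of the foregut list 1 gene was higher dorsally and 5 ventrally. Markers of other cell types also moved between the parts. The mean of 7 red blood cell genes was 9.96 and 9.99 dorsally and 9.54 and 9.32 ventrally, with 3 of 6 tested higher dorsally. Of 6 tested neural crest genes 5 were higher dorsally and 1 ventrally. Among those 5, *Foxd3* (5.01 and 5.74 dorsally, 4.25 and 4.23 ventrally) passed the filter only through its dorsal arrays, where it was high. Of 10 epithelial genes 4 were higher ventrally, none of them without either dorsal array. The part of these cells in the small shift of the ribosomal protein genes was not tested.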

How the data were processed

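The authors deposited 1 value per probe set and array, named RMA in the submitters' processing notes and read here as log2 from its range. The software version is not given, and the paper leaves the arrays undescribed. RMA as usually run subtracts background, equalizes distributions and summarises probes. The deposited values were not equal in distribution, with a 90th percentile of 9.82 on ventral replicate 2 and 10.06 on the other arrays. Gene symbols were taken from the platform table at GEO, of which 34754 of 34958 were found in RefSeq (GRCm38.p6) and 0 changed. The brightest probe set stood for each gene. Genes above the 40th percentile of an array on at least 2 arrays were fitted with limma 3.58.1 (R 4.3.3, moderated two-sided test, no block) and adjusted by Benjamini-Hochberg over 13139 genes, with a threshold of 0.05. The fit was tested on simulated arrays. Precision is limited by having 2 arrays per part.

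Members and gene lists were chosen with earlier results of these data known. Genes are named where they passed the test, had 1 of the 5 largest differences in either direction, had 1 of the 3 highest or lowest levels or 1 of the 3 largest differences between replicates, or were paralogs, their partners or P-stalk genes, and in other lists where they passed (at most 4). Outside this rule, *Rpl7a*, *Rpl35*, *Rps10*, *Rpl11*, *Rpl38*, *Rps9*, *Rps18*, *Rps19*, *Rps20*, *Rps29*, *Rpsa*, *Fau*, *Eef1a1*, *Foxa2*, *Foxf1*, *Barx1*, *Nkx2-1*, *Tnnc2* and the muscle regulators were chosen after their values were seen, as were the genes listed for a change of sign. The same holds for *Ryr2*, *Foxd3* and *Cdh1*. Alternatives changed the filter, the scaling, the probe sets, the variance model, the replicate block and the arrays used.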

Additional observations from a re-analysis of the deposited data

How the results depend on the processing

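With 2 arrays per part, leaving 1 out leaves a part with a lone array, which is then assumed to vary like the other part. The number of ribosomal protein genes called higher dorsally was 3 without probe sets ending in _s_at or _x_at, 0 when each probe set was tested on its own, and 0 to 23 with 1 array left out, where the calls over all genes ran from 526 to 6137. Their median fell to 0.035 after quantile normalization once more, where 13 genes changed sign, to -0.0074 for *Rpl10a*, -0.00605 for *Rpl13a*, -0.039 for *Rpl39*, -0.011 for *Rpl6*, -0.0062 for *Rpl7*, -0.013 for *Rpl7a*, -0.035 for *Rps20*, -0.044 for *Rps24*, -0.050 for *Rps26*, -0.038 for *Rps28*, -0.03 for *Rps3*, -0.032 for *Rps3a1* and -0.030 for *Rps4x*. With 1 array left out, the differences ran from -0.44 to 0.30 in *Rpl27a*, -0.13 to 0.069 in *Rpl37*, -0.011 to 0.035 in *Rpl39*, -0.00095 to 0.30 in *Rpl4*, -0.010 to 0.26 in *Rpl6*, -0.019 to 0.22 in *Rpl7*, -0.007 to 0.27 in *Rpl7a*, -0.052 to 0.27 in *Rplp0*, -0.028 to 0.26 in *Rps2*, -0.024 to 0.14 in *Rps26*, -0.016 to 0.24 in *Rps3a1*, -0.21 to 0.17 in *Rps4l* and -0.011 to 0.23 in *Rps4x*. The cause was not tested.

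The replicate numbers were not shown to pair the arrays, since there are only 2 pairs and the replicate differences of the parts correlated at 0.136 across genes. With the replicate block, *Rpl12* was still the 1 member called (limma adjusted p = 0.00683, range 0.00550 to 0.651) and 1468 genes were called in all.

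Counts in the other lists also moved. Dorsal calls among ribosome assembly factors were 0 with no filter, 4 with the filter at the 60th percentile, 0 with the mean of all probe sets, 2 without _s_at and _x_at, 5 with a trend, 3 with the replicate block and 0 to 23 with 1 array left out. Those of RNA polymerase I and its factors were 0 with no filter, with equal medians and with probe sets averaged, 2 without _s_at and _x_at, and 0 to 6 with 1 array left out. With 1 array left out, dorsal calls were 0 to 9 in the TOR list, 0 to 5 among elongation factors, 0 to 12 among initiation factors, 0 to 55 among mitochondrial ribosomal proteins, 0 to 2 for *Rpsa* and *Fau*, and 0 to 6 among p53 targets, whose ventral calls were 0 to 2, and 0 with no filter. Skeletal muscle had 0 dorsal calls with the filter at the 60th percentile, 2 with equal medians, without _s_at and _x_at, with a trend, with robust variances and with the block, 0 to 4 with 1 array left out, and 0 to 2 ventral calls there. Epithelium had 1 dorsal call with the filter at the 60th percentile, equal medians, no _s_at and _x_at, a trend, robust variances and the block, 0 to 1 with 1 array left out, and 1 ventral call with no filter, 2 with the mean of all probe sets, 7 with a trend and 0 to 7 with 1 array left out. Foregut genes had 0 dorsal calls with no filter and after quantile normalization, 0 to 2 dorsal and 2 to 7 ventral calls with 1 array left out, and red blood cells 2 to 5 dorsal and 0 to 1 ventral calls.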
